A study of Mus musculus with 12 samples.

Results

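The genes described here are 10 members of the bone morphogenetic protein (Bmp) pathway: the ligands Bmp2, Bmp4, Bmp6 and Bmp7, the receptor Bmpr1a, the target genes Id1, Id2 and Id3, and the secreted inhibitors Sostdc1 and Grem1. They were chosen by name, with earlier results of these data known, and their symbols were matched to the Entrez numbers of the deposited tables. All 10 had values at both ages, among 17665 identifiers with values in both tables. The study sequenced RNA of peeled dorsal epidermis of C57BL/6 mice in 12 libraries, 3 per group, from mice whose keratinocytes in the DKO groups are meant to lack the vitamin D receptor, Vdr, together with Med1, a subunit of the Mediator complex. The double knockout (DKO) groups were VDR fl/fl and Med1 fl/fl with K14 Cre+/-, at postnatal day 36 (P36) and at 6 months. The control groups were VDR fl/fl and Med1 fl/fl with K14 Cre-/-, at the same ages, so that both genotypes carried the floxed alleles and differed in the Cre transgene. The keratin 14 promoter that drives this Cre is active in basal keratinocytes and in the follicle cells that descend from them, and not in dermal cells. Whether the replicates came from different animals is not in the labels, and p-values then cover only the spread among these 12 samples, which may be technical.

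Bmp ligands are secreted dimers that bind a pair of type I and type II receptor kinases, of which Bmpr1a is a main type I receptor of keratinocytes. The receptors phosphorylate Smad1 and Smad5, which join Smad4 and switch on target genes, among them the Id genes, whose proteins block basic helix-loop-helix transcription factors. Secreted inhibitors such as noggin, gremlin 1 (Grem1) and sclerostin domain-containing 1 (Sostdc1) bind ligands outside the cell. In mouse skin this pathway is known for holding follicle stem cells at rest and for the differentiation of the hair shaft.

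At 6 months 3 of the 4 ligand genes, Id3, Id1 and Grem1 were lower in the DKO-labelled libraries than in control libraries, and Sostdc1 and Bmpr1a were higher. Bmp2, Bmp4, Bmp6 and Grem1 were at 6.95% to 18% of their control means. At P36 the same 3 ligand genes were lower by less, at 40.4% to 68% of control. Bmp7 was not called at either age, and made up a larger part of the summed ligand level in the DKO-labelled libraries at both ages.

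The promoters of the members were read for letters that Smads and other factors are known to bind, as a description only. RefSeq promoter sequences (GRCm38.p6) were held for 6 of the 10 members: Bmp4, Bmp6, Bmpr1a, Id2, Id3 and Grem1. The 250 bases before the annotated start are printed for the 4 of them called lower at 6 months, 5′ to 3′ on the gene's strand. Capitals mark the letters GGCGCC, a GC-rich element bound by Smad1 and Smad5, CAGAC, the Smad binding element, CACGTG, an E-box, and AGGTCA, a half-site of nuclear receptors such as Vdr, each on either strand.
Bmp4 (chr14:46390670-46390919, minus strand): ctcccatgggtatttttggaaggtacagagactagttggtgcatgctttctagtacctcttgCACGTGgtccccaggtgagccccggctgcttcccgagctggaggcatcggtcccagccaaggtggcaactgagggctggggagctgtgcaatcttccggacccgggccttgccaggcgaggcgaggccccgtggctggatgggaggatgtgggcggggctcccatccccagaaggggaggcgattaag
Bmp6 (chr13:38345466-38345715, plus strand): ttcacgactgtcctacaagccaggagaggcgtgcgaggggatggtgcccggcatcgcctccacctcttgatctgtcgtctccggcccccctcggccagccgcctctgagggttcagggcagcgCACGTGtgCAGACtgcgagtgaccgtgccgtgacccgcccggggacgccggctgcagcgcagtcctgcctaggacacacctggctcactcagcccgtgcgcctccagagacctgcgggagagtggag
Id3 (chr4:136143572-136143821, plus strand): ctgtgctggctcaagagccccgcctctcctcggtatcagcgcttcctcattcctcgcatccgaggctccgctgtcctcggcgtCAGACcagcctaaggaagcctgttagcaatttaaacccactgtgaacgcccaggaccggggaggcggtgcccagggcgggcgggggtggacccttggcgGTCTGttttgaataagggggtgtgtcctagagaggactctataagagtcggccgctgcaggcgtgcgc
Grem1 (chr2:113758649-113758898, minus strand): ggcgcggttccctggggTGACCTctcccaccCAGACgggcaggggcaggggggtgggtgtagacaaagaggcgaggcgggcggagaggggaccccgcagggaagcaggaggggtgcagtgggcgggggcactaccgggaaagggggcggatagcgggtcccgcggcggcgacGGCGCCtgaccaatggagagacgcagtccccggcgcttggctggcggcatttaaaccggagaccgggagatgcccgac
Id3 held CAGAC or its reverse complement at 2 places, whose first letters lie 167 and 68 bases before the start. Bmp6 held it at 1 place, 119 bases before the start, and Grem1 at 1 place, 219 bases before it. Over 27025 promoters of this length, 42.1% held CAGAC on either strand. GGCGCC, held by 9.54% of all promoters, was found in Grem1, Id2 and Bmpr1a. CACGTG, held by 6.05%, was found in Bmp4 and Bmp6, and AGGTCA, held by 13.8%, in Grem1. No motif overlapped another in the printed windows. The members' windows had a GC content of 62.8% to 78.8%, against a median of 52% over all promoters.

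Expression was given as FPKM, fragments scaled by gene length and library total. Column totals lay between 446617 and 554382 FPKM, and a library held 12056 to 12760 genes at 1 FPKM or more. FPKM values carry no read counts, so the depth behind each value is unknown and no counting interval is given. The keratins Krt14, with 1132 to 3388 FPKM, and Krt5, with 1068 to 3185 FPKM, which mark basal keratinocytes, were high in all 12 libraries. Of the targeted genes, Med1 was at 10.35, 8.78 and 8.20 FPKM in the DKO-labelled libraries at P36, against 13.94, 14.19 and 13.22 FPKM in control (log2 fold change −0.55, limma adjusted p = 0.0083). At neither age was Vdr lower in the DKO-labelled libraries: it averaged 83.5 ± 6.06 FPKM there and 68.0 ± 4.16 FPKM in control at P36, and 48.1 ± 5.49 and 40.5 ± 11.6 FPKM at 6 months (SD, n = 3 each). At 6 months Med1 was not called (−0.26, limma adjusted p = 0.13), but was with totals that leave out keratin and cornified envelope genes (−0.45, limma adjusted p = 0.0328), and Vdr was called higher without control 6mo replicate 1 (0.49, limma adjusted p = 0.031). A value over the whole gene cannot show a missing exon, so the Vdr values do not settle whether the label holds. Each direction below rests on that label.

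Fold changes below are differences of log2(FPKM + 1), DKO over control, which understate the change of low genes. They come from a limma fit over all genes that reached 1 FPKM in 3 or more libraries, and a gene was called at a Benjamini-Hochberg adjusted p below 0.05 over all genes tested. All 10 members passed this filter at both ages. Bmp6 passed at 6 months through its 3 control libraries alone, and Grem1 passed at P36 with 1 DKO-labelled and 2 control libraries.

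Of the ligand genes, Bmp2 is known from the differentiating hair matrix and shaft, among other sites. At P36 it was at 5.40, 4.36 and 5.65 FPKM in the DKO-labelled libraries, against 11.36, 13.56 and 13.19 FPKM in control. The groups did not overlap, and Bmp2 fell by 1.16 on the log2 scale (SE 0.12, limma adjusted p = 0.000813). Bmp6, a ligand known from the follicle niche, was at 3.03, 2.82 and 2.38 FPKM in the DKO-labelled libraries, against 5.88, 6.63 and 6.54 FPKM in control. Its groups were also apart (log2 fold change −0.98, SE 0.12, limma adjusted p = 0.00132). Bmp4, made by the dermal papilla and by follicle keratinocytes, was at 20.40, 17.39 and 20.29 FPKM in the DKO-labelled libraries, against 28.05, 30.46 and 26.84 FPKM in control. The difference was smaller than for Bmp2 and Bmp6 but every control library lay above every DKO-labelled one (log2 fold change −0.53, SE 0.10, limma adjusted p = 0.00688). Bmp7, the most abundant of the 4 ligand genes per gene length, was at 33.71, 38.14 and 35.57 FPKM in the DKO-labelled libraries, against 38.31, 45.60 and 44.85 FPKM in control. The highest DKO-labelled value was just below the lowest control value, and Bmp7 was not called (log2 fold change −0.25, 95% interval −0.48 to −0.02, limma adjusted p = 0.11). It was called only with median-ratio scaling of the libraries (−0.38, limma adjusted p = 0.0387, against 0.0387 to 0.381 over the alternatives).

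Of the receptor and the Id genes, Id2 alone was called at P36. Bmpr1a was at 37.03, 27.65 and 30.04 FPKM in the DKO-labelled libraries, against 34.39, 37.81 and 37.91 FPKM in control, and the groups overlapped (log2 fold change −0.22, 95% interval −0.49 to 0.05, limma adjusted p = 0.236). Id1 was at 92.01, 79.37 and 74.95 FPKM in the DKO-labelled libraries, against 80.22, 78.31 and 95.20 FPKM in control. Both Id1 groups covered nearly the same range (log2 fold change −0.04, 95% interval −0.31 to 0.22). Id2 was at 38.31, 31.46 and 30.43 FPKM in the DKO-labelled libraries, against 41.83, 45.57 and 43.69 FPKM in control. Its groups were apart and it was called lower (log2 fold change −0.38, SE 0.11, limma adjusted p = 0.0342). That call was lost in 7 of 12 alternatives: in the joint fit of all 12 libraries (limma adjusted p = 0.118), with the replicate number as a block (limma adjusted p = 0.0669), and without any 1 of the P36 libraries other than DKO replicate 1 (limma adjusted p = 0.0673 to 0.132). Id3, the highest of the 3 Id genes at this age, was at 121.57, 90.94 and 86.83 FPKM in the DKO-labelled libraries, against 129.48, 168.22 and 119.30 FPKM in control. DKO replicate 1 lay above control replicate 3, and Id3 was not called (log2 fold change −0.47, 95% interval −0.86 to −0.09, limma adjusted p = 0.0799). It was called lower with median-ratio scaling (−0.61, limma adjusted p = 0.0282) and without DKO P36 replicate 1 (−0.62, limma adjusted p = 0.0316).

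Neither inhibitor was called at P36. Sostdc1, which also binds Wnt co-receptors, was at 26.28, 44.26 and 45.63 FPKM in the DKO-labelled libraries, against 30.30, 42.62 and 14.28 FPKM in control. Both groups were wide and overlapped (log2 fold change 0.49, 95% interval −0.37 to 1.34). Grem1 was low at this age, with 0.21, 0.59 and 1.43 FPKM in the DKO-labelled libraries against 2.65, 2.12 and 0.83 FPKM in control. The groups overlapped (log2 fold change −0.72, 95% interval −1.46 to 0.02, limma adjusted p = 0.154), and without control P36 replicate 3 Grem1 was called lower (−1.01, limma adjusted p = 0.045). In all, 4 of 10 members were called at P36, all lower, where 5.32% of all 12660 genes tested were called lower, 18.0% higher and 23.3% in either direction. The groups lay apart with DKO lower in 5 of 10 members, against 9.63% of all genes. The median log2 fold change of the members was −0.43, against 0.09 over all genes tested.

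**Figure D1:**
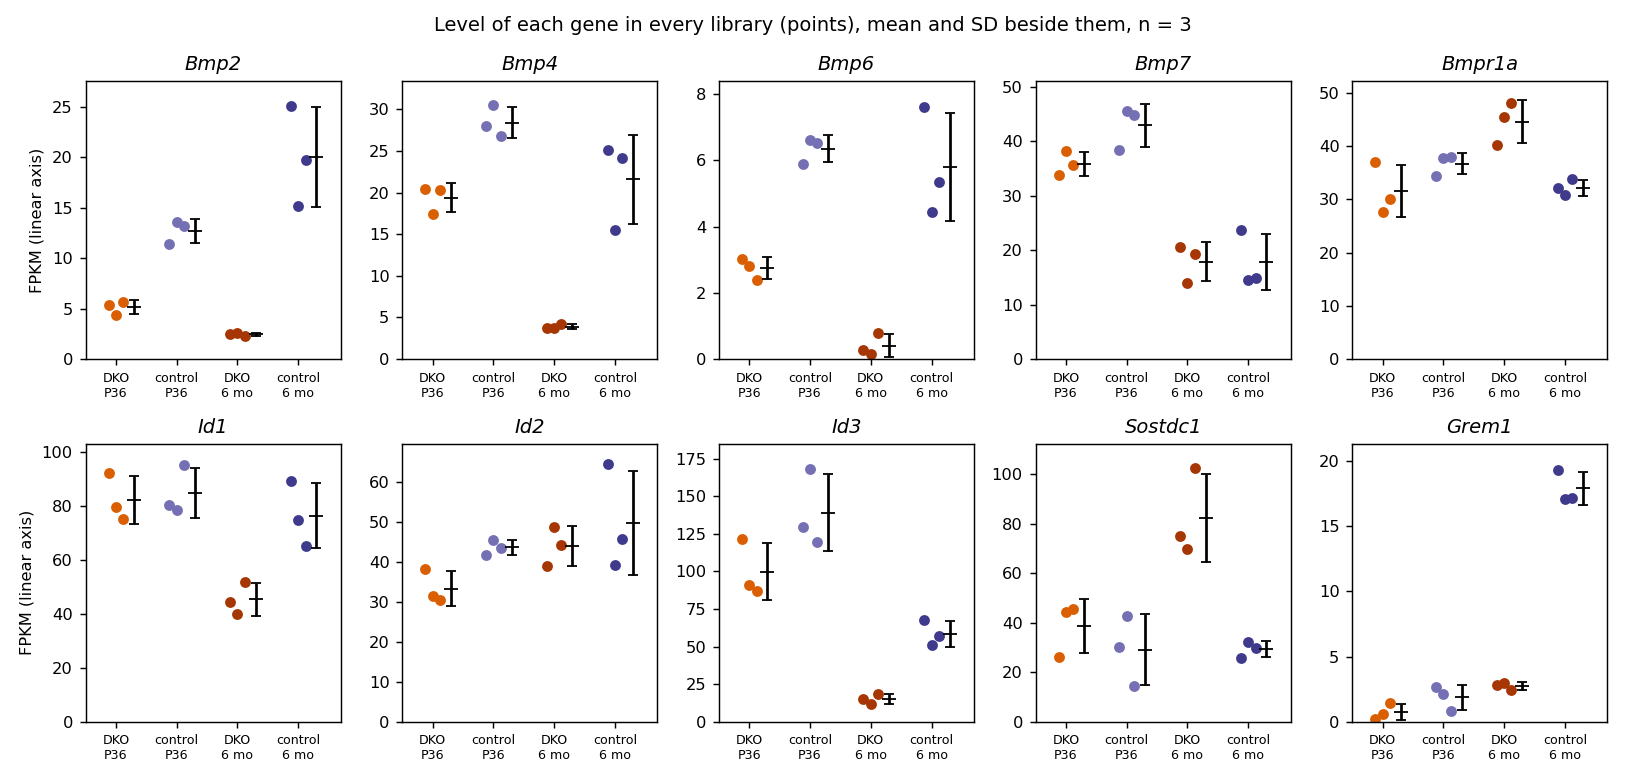
FPKM (y axis, linear, starting at 0) of each of the 10 genes in every library; points are libraries of the DKO-labelled and control groups at P36 and then at 6 months, and the bar beside them is the mean with its SD (n = 3). Bmp2, Bmp4, Bmp6, Id3 and Grem1 lie far below control in the DKO-labelled libraries at 6 months, Sostdc1 lies above control, and Bmp7 and Id2 overlap.

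At 6 months Bmp2 was at 2.48, 2.57 and 2.29 FPKM in the DKO-labelled libraries, against 25.08, 15.12 and 19.71 FPKM in control. All 3 DKO-labelled values were close together and far below the lowest control library, at 12.3% of the control mean (log2 fold change −2.58, SE 0.18, limma adjusted p = 0.000194). Bmp4 was at 3.75, 3.67 and 4.24 FPKM in the DKO-labelled libraries, against 25.16, 15.46 and 24.15 FPKM in control. The mean was 18% of control (log2 fold change −2.18, SE 0.19, limma adjusted p = 0.000378). Bmp6 was at 0.27, 0.15 and 0.79 FPKM in the DKO-labelled libraries, against 7.62, 4.44 and 5.34 FPKM in control. No DKO-labelled library reached 1 FPKM, and the mean was 6.95% of control. The fitted log2 fold change of Bmp6 was −2.28 (SE 0.24, limma adjusted p = 0.00071) with 1 FPKM added to each value and −3.73 with 0.1 FPKM added. Bmp7 was at 20.60, 13.89 and 19.25 FPKM in the DKO-labelled libraries, against 23.70, 14.58 and 14.97 FPKM in control. Its groups overlapped (log2 fold change 0.03, 95% interval −0.49 to 0.54, limma adjusted p = 0.928), an interval that leaves room for a change by a little over 0.5 on the log2 scale in either direction.

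Id3 was at 15.16, 11.86 and 18.36 FPKM in the DKO-labelled libraries at 6 months, against 67.87, 50.83 and 57.08 FPKM in control. The DKO-labelled mean was 25.8% of control (log2 fold change −1.90, SE 0.17, limma adjusted p = 0.000482). Id1 was at 44.22, 39.79 and 51.90 FPKM in the DKO-labelled libraries, against 88.94, 74.81 and 65.19 FPKM in control. Its groups were also apart, at 59.4% of control (log2 fold change −0.74, SE 0.15, limma adjusted p = 0.00734). Id2 was at 39.03, 48.89 and 44.29 FPKM in the DKO-labelled libraries, against 64.62, 39.33 and 45.78 FPKM in control, and the groups overlapped (log2 fold change −0.15, 95% interval −0.59 to 0.29). The 95% interval of Id3, −2.30 to −1.49, lay below that of Id2. Bmpr1a was at 40.19, 45.46 and 48.20 FPKM in the DKO-labelled libraries, against 32.06, 30.78 and 33.80 FPKM in control. The groups were apart and Bmpr1a was called higher (log2 fold change 0.45, SE 0.10, limma adjusted p = 0.0108), but not with totals computed without keratin and cornified envelope genes (0.26, limma adjusted p = 0.0649).

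The inhibitors moved in opposite directions at 6 months. Grem1, which in control libraries reached 19.35, 17.05 and 17.18 FPKM at this age, was at 2.83, 2.98 and 2.42 FPKM in the DKO-labelled libraries. Its mean was 15.4% of control (log2 fold change −2.33, SE 0.11, limma adjusted p = 8.77e-05), and by p-value Grem1 ranked 16 among 12594 genes tested. Sostdc1 was at 74.92, 69.56 and 102.48 FPKM in the DKO-labelled libraries, against 25.73, 32.32 and 29.92 FPKM in control. The DKO-labelled mean was 281% of control, with every library above every control library (log2 fold change 1.44, SE 0.16, limma adjusted p = 0.000968). In all, 6 of 10 members were called lower and 2 higher at 6 months. Over all 12594 genes tested, 18.2% were called lower, 23.2% higher and 41.3% in either direction. The groups lay apart with DKO lower in 6 members and with DKO higher in 2, against 24.0% and 31.8% of all genes. Of the members, 5 were called lower by at least 1 on the log2 scale, against 5.81% of all genes. The members' median log2 fold change was −1.32, against 0.04 over all genes. Bmp6 passed the filter through control alone and could enter only as lower. The members' counts and median are thus partly set by the filter. In bulk samples like these, fewer cells of a type and less RNA per cell cannot be told apart.

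**Figure D2:**
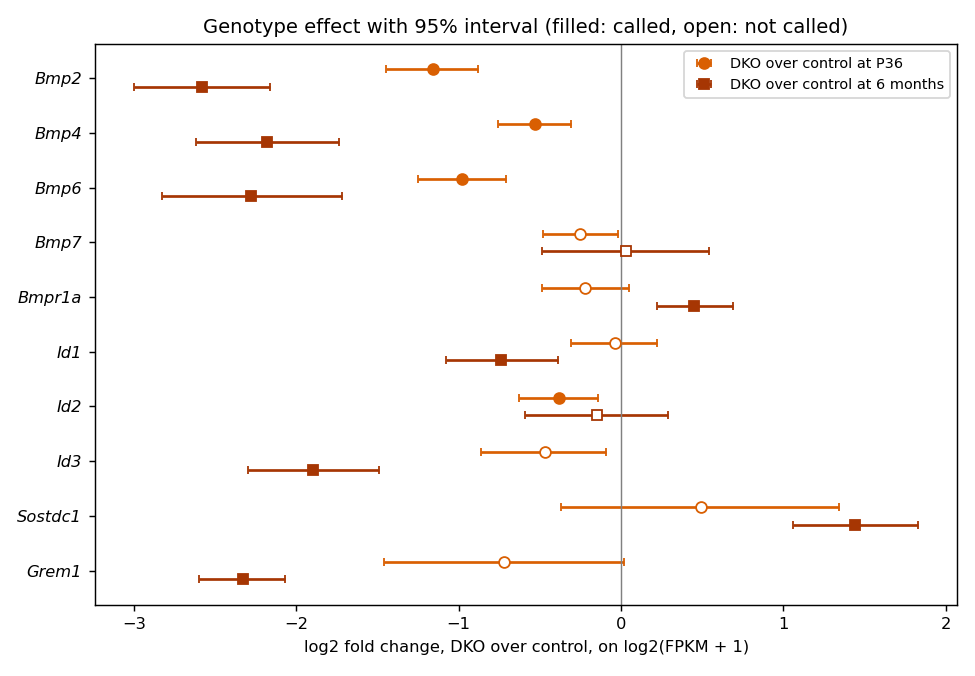
Log2 fold change of DKO over control on log2(FPKM + 1) (x axis) for each of the 10 genes (rows), with its 95% interval; circles are P36 and squares are 6 months, filled where the gene was called and open where it was not. Bmp2, Bmp4, Bmp6, Id3 and Grem1 lie below −1.5 at 6 months, while Bmp7 and Id2 lie near 0 and Sostdc1 and Bmpr1a lie above 0.

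Whether the genotype effect changed with age (6 months minus P36) was tested in a fit of all 12 libraries. It was negative and called for 6 members: Bmp4 (−1.65, SE 0.22, limma adjusted p = 0.000362), Grem1 (−1.61, SE 0.38, limma adjusted p = 0.00731), Bmp2 (−1.42, SE 0.22), Id3 (−1.42, SE 0.26), Bmp6 (−1.30, SE 0.27) and Id1 (−0.69, SE 0.19, limma adjusted p = 0.0175). It was positive and called for Bmpr1a (0.67, SE 0.16, limma adjusted p = 0.00724), whose group means lay below control at P36 and above it at 6 months. Among all 13280 genes tested, 21.1% had a called negative and 13.8% a called positive difference, 34.9% together. The calls of Id1 and Grem1 depended on the setting: Id1 was not called with median-ratio scaling (−0.52, limma adjusted p = 0.0605) and Grem1 was not called with 0.1 FPKM added (−1.29, limma adjusted p = 0.181). Sostdc1 was not called (0.96, 95% interval −0.06 to 1.97, limma adjusted p = 0.131), but was without control P36 replicate 3 (1.38, limma adjusted p = 0.0123), the control library with the lowest Sostdc1. For Bmp7 and Id2 the differences were 0.28 (95% interval −0.28 to 0.84) and 0.23 (95% interval −0.26 to 0.73).

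The make-up of the ligand pool changed with these levels. Summed over Bmp2, Bmp4, Bmp6 and Bmp7, the level was 62.5, 62.7 and 63.9 FPKM in the DKO-labelled libraries at P36, against 83.6, 96.2 and 91.4 FPKM in control. At 6 months it was 27.1, 20.3 and 26.6 FPKM in the DKO-labelled libraries, against 81.6, 49.6 and 64.2 FPKM in control. Bmp7 made up 56.8 ± 3.58% of the sum in the DKO-labelled libraries and 47.4 ± 1.65% in control at P36, and 72.3 ± 3.75% and 27.3 ± 3.44% at 6 months (SD, n = 3 each). The share of Bmp2 at 6 months was 8.62% to 12.7% in the DKO-labelled libraries, and in control it stayed between 30.5% and 30.8% although the sum varied between libraries. FPKM is scaled by gene length, so these shares compare transcripts and not the amounts of protein.

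**Figure D3:**
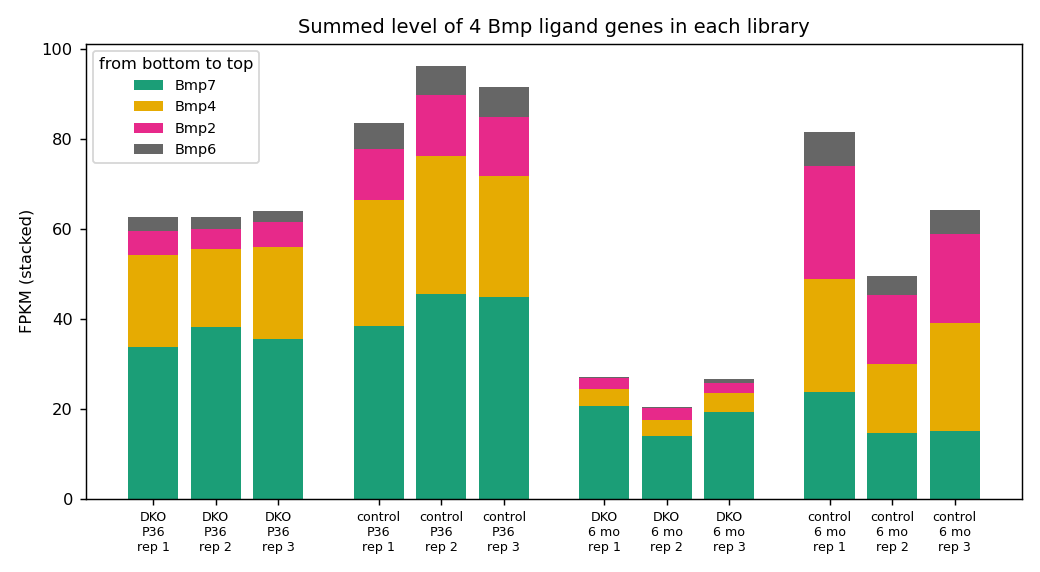
Stacked FPKM (y axis, linear, starting at 0) of Bmp7, Bmp4, Bmp2 and Bmp6, from bottom to top, in each of the 12 libraries, with DKO-labelled libraries left of control at each age. The sum is 20.3 to 27.1 FPKM in the DKO-labelled libraries at 6 months and 49.6 to 81.6 FPKM in control, and the Bmp7 part is of like height in both.

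Members were also compared between ages within each genotype. FPKM is scaled within each library, but the tables of the ages are separate, and age cannot be told apart from any difference in how the tables were made. The hair matrix and shaft marker list described below was also lower at 6 months, with 14 of 14 tested genes called lower in each genotype. Its median log2 fold change was −7.92 in DKO and −9.08 in control, and its part in the age differences was not tested. Grem1 was higher at 6 months than at P36 in DKO (log2 fold change 1.16, SE 0.27) and in control (2.77, SE 0.27). Id3 was lower at 6 months in DKO (−2.65, SE 0.19) and in control (−1.23, SE 0.19). Bmp2 was lower at 6 months in DKO (−0.83, SE 0.16, limma adjusted p = 0.000941) and higher in control (0.59, SE 0.16, limma adjusted p = 0.00661). Bmp7 was lower at 6 months in DKO (−0.98, SE 0.18) and in control (−1.26, SE 0.18). Bmp4 was lower at 6 months in DKO (−2.06, SE 0.16), and in control its fall of −0.41 (limma adjusted p = 0.0368) was lost in 5 of 11 alternatives (limma adjusted p = 0.00744 to 0.167 over all of them). These were totals that leave out keratin and cornified envelope genes, and fits without control P36 replicate 1, 2 or 3 or control 6mo replicate 2. Bmp6 and Id1 were lower at 6 months in DKO (−1.44 and −0.85) and were not called in control (−0.14 and −0.15). Bmpr1a was higher at 6 months in DKO (0.49, limma adjusted p = 0.00262) and not called in control (−0.18), where median-ratio scaling made it lower (−0.31). Id2 was not called in DKO (0.39, limma adjusted p = 0.0526), though it was with median-ratio scaling or without DKO P36 replicate 1 or DKO 6mo replicate 1, nor in control (0.16). The rise of Sostdc1 in DKO (1.09, limma adjusted p = 0.0132) missed the threshold when DKO P36 replicate 1 was left out (0.84, limma adjusted p = 0.0604). Of the 10 members, 6 were called lower and 3 higher at 6 months in DKO, where 32.0% and 28.0% of all genes were, 60.0% together. In control, 3 were called lower and 2 higher, where 27.9% and 35.3% of all genes were, 63.1% together.

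The other Bmp pathway genes were counted from lists drawn up by role, with earlier results of these data known. Their counts are therefore a description only. The lists hold 62 genes besides the members, of which 43 were tested at P36 and 39 at 6 months. At P36, 11 of the 43 were called lower and 4 higher, with a median log2 fold change of 0.00, against 5.32% called lower, 18.0% called higher and a median of 0.09 over all genes. At 6 months, 16 of the 39 were called lower and 1 higher, with a median of −0.66, against 18.2% called lower, 23.2% called higher and a median of 0.04 over all genes. Of these 16, 5 (Gdf10, Nog, Chrdl1, Lef1 and Hey1) were under 1 FPKM in all 3 DKO-labelled libraries and passed the filter through control alone, so that they could enter only as lower and the count and median are partly set by the filter.

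Among other ligands, Gdf10 was at 34% of control at P36 and 6.74% at 6 months and was called lower at both ages (log2 fold changes −1.07 and −1.71), but leaving out DKO P36 replicate 2 ended the P36 call (limma adjusted p = 0.0541). Bmp3, a ligand that antagonises other Bmps, was called lower at 6 months alone, with 2.77, 2.65 and 2.12 FPKM in the DKO-labelled libraries against 5.44, 5.43 and 5.74 FPKM in control (log2 fold change −0.90). Of the receptors, the type II receptor Bmpr2 was not called at P36 (0.00, 95% interval −0.25 to 0.26). It was called higher at 6 months (0.29, limma adjusted p = 0.0465), a call lost in 8 of 12 alternatives: median-ratio scaling, totals without keratin and cornified envelope genes, the replicate block, and leaving out any 6-month library but DKO 6mo replicate 1 (limma adjusted p = 0.0686 to 0.422 in these). Acvrl1, a receptor of endothelial cells, was called higher at P36 (0.70) and lower at 6 months (−1.0), and the second call was lost without DKO 6mo replicate 1 or 2 or control 6mo replicate 1 or 3. The signal transducers Smad1 and Smad5 were not called at either age: at 6 months their intervals were −0.19 to 0.27 and −0.69 to 0.03. With totals that leave out keratin and cornified envelope genes, Smad5 was called lower at 6 months (−0.52). Smad4 was called lower at 6 months (−0.37, limma adjusted p = 0.0218), but not without DKO 6mo replicate 1 or 2 or control 6mo replicate 2 or 3.

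Of the further inhibitors and modulators, noggin (Nog) was at 0.16, 0.40 and 0.64 FPKM in the DKO-labelled libraries at 6 months, against 1.80, 3.42 and 1.99 FPKM in control. Having passed the filter through control alone, it was called lower there (log2 fold change −1.27, SE 0.23, limma adjusted p = 0.00466) and not at P36 (0.33, 95% interval −0.01 to 0.66). Nbl1, a secreted Bmp antagonist, was called lower at 6 months (−2.05), as were Htra1 (−1.30), Crim1 (−0.99), Chrdl1 (−0.84), Tob1 (−0.78) and Smad7 (−0.46). The Chrdl1 call was lost without DKO 6mo replicate 1 or 2, and the Smad7 call in 7 of 12 alternatives: no filter, a pseudocount of 0.1 FPKM and leaving out any 6-month library but DKO 6mo replicate 3. At P36, the pathway's intracellular inhibitors Smad6 and Smad7 and the pseudoreceptor Bambi, which Bmp signals are known to induce, were called lower. Smad6 averaged 11.7 ± 1.39 FPKM in the DKO-labelled libraries and 24.5 ± 4.80 FPKM in control, Smad7 averaged 8.22 ± 0.561 and 16 ± 3.59 FPKM, and Bambi averaged 16.1 ± 4.63 and 33.6 ± 1.22 FPKM (SD, n = 3 each). Fstl1 (1.19), Eng (0.97) and Smurf1 (0.60) were called higher at P36. Fstl1 and Eng are known from fibroblasts and endothelium, and lists of those cells were also higher there. The part of those cells in the higher Fstl1 and Eng was not tested. The Eng and Fstl1 calls were lost in the joint fit (limma adjusted p = 0.0566 and 0.0593). At 6 months Fstl1 (−0.81) and Eng (−1.12) were called lower once DKO 6mo replicate 3 was left out.

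Of the 14 transcription factor genes on the target list, 8 of 14 tested were called lower at P36 and 7 of 12 tested at 6 months, with none called higher at either age. Over all genes, 5.32% were called lower at P36 and 18.2% at 6 months. Both counts include the Id genes. At P36 these were Msx2 (−1.13), Dlx3 (−1.08), Lef1 (−0.92), Foxn1 (−0.89), Hoxc13 (−0.89), Gata3 (−0.81) and Msx1 (−0.77) besides Id2. The Msx1 call was lost without DKO P36 replicate 3 or control P36 replicate 2, and the Gata3 call in the joint fit (limma adjusted p = 0.0903). At 6 months they were Dlx5 (−1.74), Gata3 (−1.73), Lef1 (−1.68), Hey1 (−1.07) and Msx2 (−1.07) besides Id1 and Id3, of which Lef1 and Hey1 passed the filter through control alone. Dlx3 (−0.85, limma adjusted p = 0.0631) and Foxn1 (−0.70, limma adjusted p = 0.0833) were not called at 6 months, but both were called lower in the joint fit, with totals that leave out keratin and cornified envelope genes and without control 6mo replicate 1, and Dlx3 also with median-ratio scaling (limma adjusted p = 0.00305 to 0.0445 in these for Dlx3 and 0.0047 to 0.0429 for Foxn1). Id4 was not called at either age, with 45.44, 47.79 and 48.14 FPKM in the DKO-labelled libraries at 6 months against 49.01, 59.20 and 47.87 FPKM in control (−0.13, 95% interval −0.38 to 0.12). It was called lower at 6 months with totals that leave out keratin and cornified envelope genes (−0.33).

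**Figure D4:**
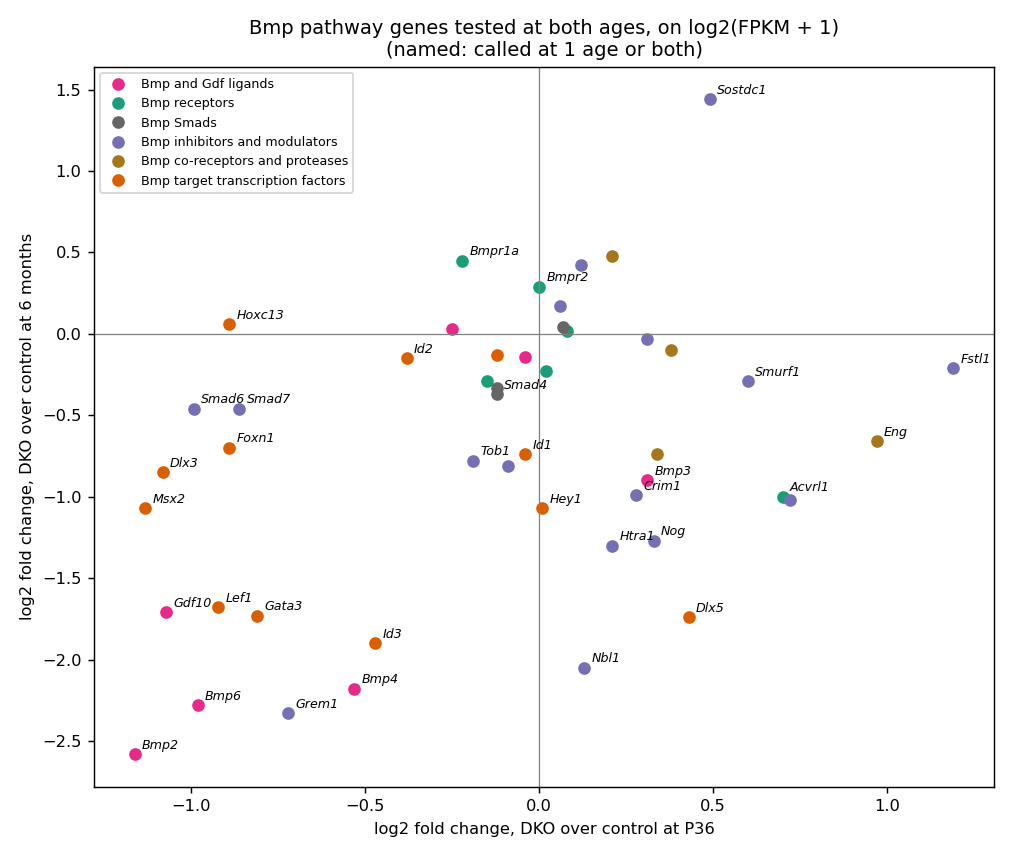
Log2 fold change of DKO over control at P36 (x axis) and at 6 months (y axis) on log2(FPKM + 1) for 48 Bmp pathway genes tested at both ages, coloured by role and named where called at 1 age or both. Among those low on both axes are Bmp2, Bmp4, Bmp6, Gdf10, Grem1, Lef1, Gata3 and Msx2, and Sostdc1 lies highest on the y axis.

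Markers of other cell types moved in the same libraries. Their counts stand against 5.32% of all genes called lower and 18.0% higher at P36, and 18.2% lower and 23.2% higher at 6 months. At P36, 14 of 14 tested skeletal muscle genes were called higher, and the list's mean log2(FPKM + 1) was 3.16 to 4.83 in the DKO-labelled libraries against 1.07 to 1.54 in control. Of these 14, 5 were under 1 FPKM in every control library and passed the filter through the DKO-labelled libraries alone, as did 2 of the adipocyte genes and 1 of the macrophage, neutrophil and mast cell genes. Also called higher at P36 were 10 of 14 dermal fibroblast genes (list level 5.27 to 5.75 in DKO, 4.13 to 4.62 in control), 8 of 12 smooth muscle and endothelial genes (3.46 to 3.88 and 2.79 to 2.98), 9 of 10 adipocyte genes (4.50 to 4.94 and 2.25 to 2.85) and 13 of 15 genes of macrophages, neutrophils and mast cells (4.43 to 4.91 and 2.60 to 3.14). At the same age, 13 of 14 genes of the hair matrix and shaft list were called lower (8.50 to 9.06 in DKO and 9.81 to 10.22 in control). This was in the same libraries as the lower Bmp2, Bmp6 and Bmp4. That list also holds inner root sheath genes: Krt71, Krt25, Krt27, Krt28 and Tchh. Of 12 dermal papilla genes 1 was higher and 0 lower (1.83 to 2.34 and 1.57 to 2.26). The bulge and outer root sheath list had 4 of 11 lower and 2 higher (4.23 to 4.39 and 4.32 to 4.46), and the interfollicular keratinocyte list 4 of 12 higher and 2 lower (8.13 to 8.46 and 7.65 to 7.87). The part of these cell types in the P36 results was not tested.

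The list of the bulge and outer root sheath had 8 of 11 genes called lower and 0 higher at 6 months, with list levels of 2.58 to 3.40 in the DKO-labelled libraries and 4.81 to 5.19 in control. Of these, 1 passed the filter through control alone, as did 1 of the list's lower genes at P36 and 2 of the dermal papilla genes at 6 months. The lower bulge list stands beside the lower Bmp2, Bmp4, Bmp6, Id3 and Grem1, and its part in them was not tested. Of 8 dermal papilla genes 3 were lower (0.68 to 1.24 and 1.26 to 1.57), of 12 interfollicular keratinocyte genes 7 were lower and 2 higher (8.57 to 8.75 and 9.08 to 9.48), and of 12 smooth muscle and endothelial genes 5 were lower (2.29 to 3.09 and 3.37 to 3.81). Of 14 dermal fibroblast genes 2 were lower (3.60 to 5.09 and 4.31 to 4.87), and of 10 skeletal muscle genes 1 was lower (0.72 to 3.21 and 1.16 to 2.51). Of 9 adipocyte genes 1 was lower and 1 higher (2.56 to 3.78 and 2.49 to 3.88). Of 15 genes of macrophages, neutrophils and mast cells 3 were higher and 1 lower (3.49 to 4.76 and 2.85 to 3.33). The largest rises on this last list were in S100a8 (means of 143 FPKM in DKO and 6.71 FPKM in control) and S100a9 (174 and 11.3 FPKM). Of its 15 genes, 2 had a log2 fold change below 0, and Csf1r averaged 9.95 FPKM in DKO and 15.9 FPKM in control. The hair matrix and shaft list, inner root sheath genes included, was near 0 in both genotypes at 6 months (0.17 to 1.36 in DKO and 0.25 to 0.91 in control). Of its genes, 0 of 3 tested were called. Krt33b was listed at 0 in all 3 control libraries. DKO 6mo replicate 3 had the highest level of every list but that of interfollicular keratinocytes among the 3 DKO-labelled libraries of this age, and of these 3 it had the highest Bmp6, Bmp4, Id1, Id3, Bmpr1a and Sostdc1 and the lowest Bmp2 and Grem1. Without it, 8 of 10 members were again called at 6 months.

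**Figure D5:**
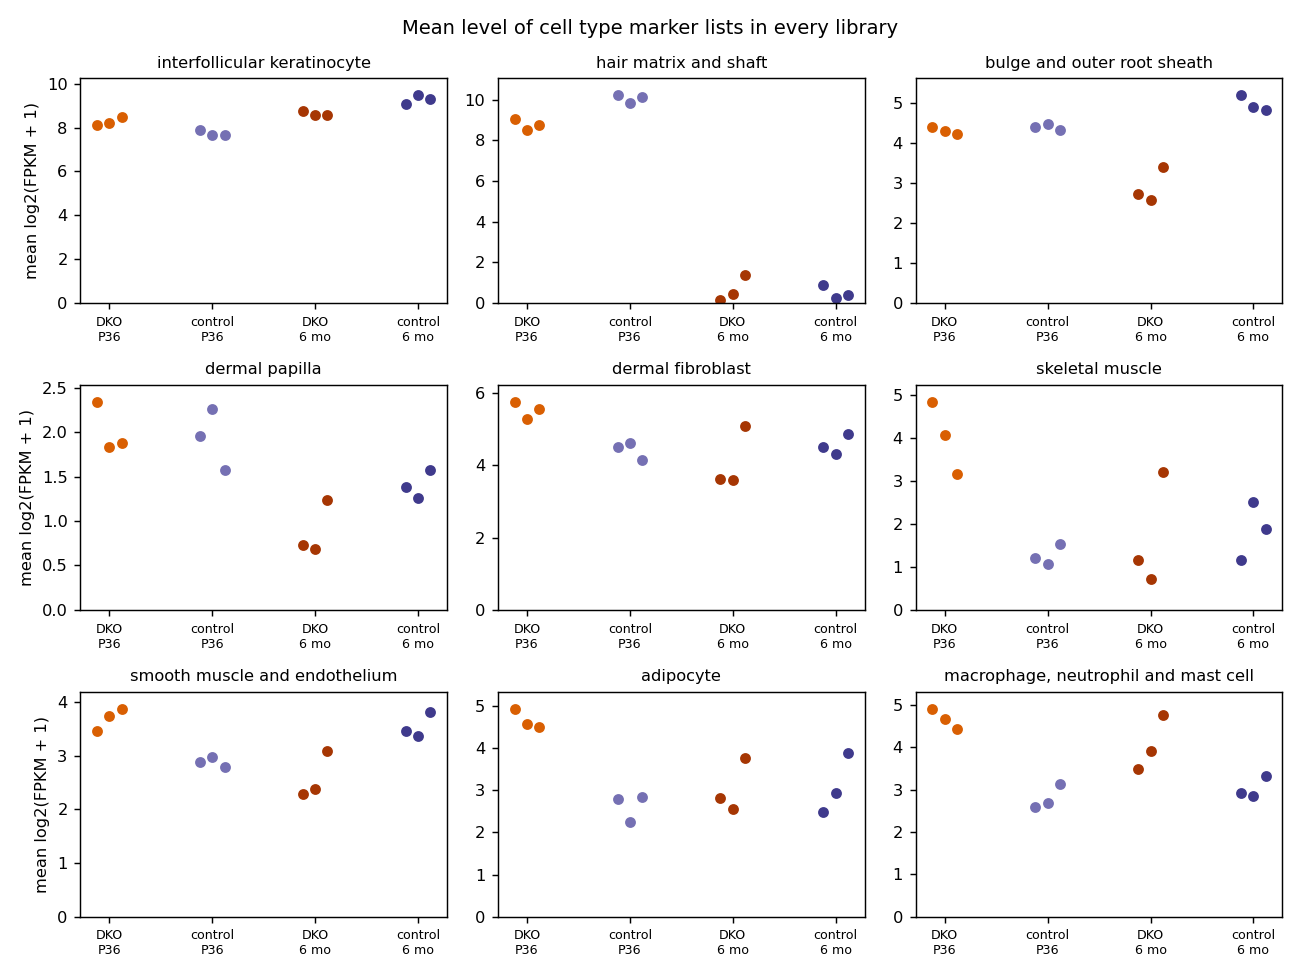
Mean log2(FPKM + 1) (y axis, starting at 0) of 9 lists of cell type markers in every library, as points for the DKO-labelled and control groups at P36 and then at 6 months. Muscle, adipocyte and fibroblast lists lie higher in the DKO-labelled libraries at P36, and the bulge list lies lower in them at 6 months. The hair matrix and shaft list, which includes inner root sheath genes, lies near 0 in both genotypes at 6 months.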

How the data were processed

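RNA of dorsal epidermis was sequenced in 12 libraries, 3 per genotype and age. The authors deposited 1 table per age with FPKM values per gene and library, and with their own log2 ratio of DKO over control, p-value and q-value, per the file headers. The aligner HISAT2 (2.1.0) and the quantifier RSEM (1.2.8) are listed in the submitters' processing notes, which name human builds for these mouse samples, so no coordinates of the reads are given. The age of a table comes from its name. A RefSeq table of GRCm38.p6 gave the symbols of the identifiers (19343 of 19392 at P36, 17712 of 17750 at 6 months). FPKM values have 2 decimals and come from estimated counts, so depth could not be recovered from low values. In R 4.3.3, limma 3.58.1 (variance prior following mean expression) was fitted to log2(FPKM + 1) for genes that reached 1 FPKM in 3 or more libraries. Each age was fitted on its 6 libraries, and the difference between ages and the age effects on all 12. The scripts were tested on simulated data. Alternatives were a pseudocount of 0.1 FPKM, no filter, median-ratio scaling, totals without keratin and cornified envelope genes, a replicate block, a joint fit, and leaving out each library. Named genes are all members, every listed pathway gene called at either age, and Bmpr2, Nog, Smad1, Smad5 and Id4. A listed pathway gene is not reported here and is left out of the counts over lists. Members and lists were chosen with earlier results of these data known.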

Additional observations from a re-analysis of the deposited data

Results flagged for a closer look

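The genotype effect differed between ages by the interaction term of the limma fit (6 months minus P36, log2 scale) for 7 members and 12 named pathway genes. This was so among members for Bmp4 (−1.65), Grem1 (−1.61), Bmp2 (−1.42), Id3 (−1.42), Bmp6 (−1.30), Id1 (−0.69) and Bmpr1a (0.67), with limma adjusted p between 0.000362 and 0.0175. Among inhibitors and modulators it was so for Nbl1 (−2.18), Nog (−1.59), Htra1 (−1.51), Chrdl1 (−1.47), Crim1 (−1.27) and Smurf1 (−0.89). Among ligands, receptors and co-receptors it was so for Acvrl1 (−1.70), Eng (−1.63) and Bmp3 (−1.21). Among target transcription factors it was so for Dlx5 (−2.17), Hey1 (−1.07) and Hoxc13 (0.95). The limma adjusted p of these pathway genes lay between 0.000645 and 0.0193, and 34.9% of all genes tested had a called difference.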

How the results depend on the processing

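No call of a member or named pathway gene turned round under any alternative run. Of 624 values of members under alternatives, 599 kept their side of the threshold, 16 lost a call and 9 gained one. With 1 library left out, 1662 to 2660 genes were called at P36, against 2949 with all. The lowest was without DKO P36 replicate 2, and 1697 were called without DKO P36 replicate 3. The members called were then 3 to 5 at P36 and 7 to 8 at 6 months, where leaving out a control library takes Bmp6 below the filter, so that it is not tested. Median-ratio scaling gave 6 called members at P36. It moved the median of all genes at P36 from 0.09 to −0.03 and the share of higher genes among those called from 77.1% to 58.9%. Totals without keratin and cornified envelope genes moved the median at 6 months from 0.04 to −0.13 and that share from 56% to 34.8%. For the difference between ages the share was 39.5%, and 54.6% and 27% with these scalings. Same-numbered libraries deviated together no more than others (r = 0.13, −0.06 and −0.12 at P36, and −0.06, 0.03 and 0.18 at 6 months). Differently numbered ones had r between −0.21 and 0.23. With 3 libraries per group these values cannot show whether the numbers pair samples. With the replicate block, 2607 genes and 3 members were called at P36, and 4862 and 8 at 6 months. Unknown depth limits what can be said of Grem1 at P36 and Bmp6 at 6 months, both low.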

Other observations

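Among genes with a mean of at least 5 FPKM, by Pearson's r of log2(FPKM + 1) across the 12 libraries, which fall into 4 groups of 3, the genes most like Id3 were Krt75, a keratin of the follicle's companion layer (r = 0.993), and Nudcd3 (r = 0.988). Those most like Bmp4 were Lhx2, a transcription factor of follicle stem cells (r = 0.981), and Cryl1 (r = 0.979), and those most like Bmp6 were Dusp8 (r = 0.980) and Cryl1 (r = 0.979). Grem1 was followed most closely by Srgap2 (r = 0.983) and Ackr4 (r = 0.981), Bmp2 by Mcc (r = 0.964) and Robo1 (r = 0.961), and Bmp7 by Mical3 (r = 0.980) and Mybbp1a (r = 0.978). The closest genes were at an r of 0.888 to 0.962 for Id1 (Cyp2s1 and Actg1, 0.962 each), Bmpr1a (Cul4b, 0.943, and Txlng, 0.929), Id2 (Sirt1, 0.923, and Msi2, 0.892) and Sostdc1 (Slc46a2, 0.904, and Nbr1, 0.888). These values describe shared levels across groups, and libraries of a group share their genotype and age.

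The authors' deposited table gives log2 ratios without an added constant, such as −3.83 for Bmp6, −3.02 for Bmp2 and −2.70 for Grem1 at 6 months. In the authors' deposited table, a total of 9 of 10 members had a q-value below 0.05 at each age, the exceptions being Id1 at P36 and Bmp7 at 6 months. In the authors' deposited table the same held for 69.9% of all genes with a q-value at P36 and 80.6% at 6 months, and 64.8% and 76.3% of genes had a q-value below their own p-value.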
